A study of Homo sapiens with 8 samples.

Results

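Intestinal epithelial identity factors were followed in the human colorectal carcinoma line HCT-116 on 8 one-colour Agilent arrays. The set held 8 genes, CDX1, CDX2, HNF4A, KLF4, KLF5, VIL1, ELF3 and GATA6, and every non-control probe carrying one of these symbols was taken, which gave 9 of the 50599 probes on the array. The 4 groups had 2 arrays each, which the series describes as biological replicates without saying what separated them. WT cells were the untreated parental line. WT+NU6102 cells were the same parental line after 24 h in 20 µM NU6102, an inhibitor of CDK1 and CDK2. CDK2 KO cells were a purchased HCT-116 line with both copies of CDK2 deleted, and were left untreated. R50 cells were an NU6102-resistant HCT-116 line derived from colonies that had grown under the drug and kept in 50 µM of it, so resistance and ongoing exposure, at another dose than that of the WT+NU6102 cells, come together in them. Neither the sources for R50 nor those for CDK2 KO cells state whether the line is a single clone. All groups were cultured in the same serum-containing medium, and only the R50 and WT+NU6102 groups met the drug. The inhibitor was dissolved in DMSO, and the labels call the WT and CDK2 KO cells untreated without naming a vehicle.

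The gut epithelium is laid down and kept in its identity by a small circuit of DNA-binding proteins. CDX1 and CDX2 are caudal homeobox factors that specify intestinal over gastric fate, HNF4A is a nuclear receptor that drives enterocyte genes together with CDX2, and GATA6 is a zinc finger factor of the endoderm. KLF5 is a Krüppel-like factor of dividing crypt cells, KLF4 its relative in differentiated, mostly non-dividing cells, and ELF3 an epithelium-specific ETS factor that acts during terminal differentiation. VIL1 encodes villin, an actin-bundling protein of the brush border and a target of this circuit rather than a transcription factor.

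The sequences that bear on the measurements are shown here, because an array level is the signal of a single 60-base oligonucleotide. Those of CDX1, KLF4 and HNF4A lie in coding sequence and are printed 5′ to 3′ on the strand of the transcript. The brighter CDX1 probe (hg19 chr5:149563184-149563243, plus strand) ends with the stop codon of the gene, which is in capitals. The KLF4 probe (hg19 chr9:110248049-110248108, minus strand) has no stop codon in any of 3 reading frames and belongs to the zinc finger region. The HNF4A probe has 60 bases but spans 6278 bases of genome (hg19 chr20:43036102-43042379, plus strand), so it crosses an exon junction. It is assigned to a single RefSeq transcript of HNF4A.
CDX1: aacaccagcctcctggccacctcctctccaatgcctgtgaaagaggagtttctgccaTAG
KLF4: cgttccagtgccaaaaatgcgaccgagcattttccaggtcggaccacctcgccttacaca
HNF4A: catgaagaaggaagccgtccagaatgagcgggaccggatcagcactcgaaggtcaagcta
No probe of another gene shared more than 14 consecutive bases with any of the 9 probes, and no probe of another gene carried a member's transcript. The remaining probes were read at hg19 chr1:201984429-201984488 for ELF3, chr13:73650979-73651038 for KLF5, chr18:19781793-19781852 for GATA6, chr13:28536302-28536361 for CDX2 and chr2:219314095-219314154 for VIL1. A second CDX1 probe lay downstream of the stop codon, with coordinates chr5:149563427-149563486. No hg19 annotation was used here, so exons and untranslated regions are not named for these.

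The other sequences of interest are the promoters of ELF3 and KLF4, which both fell with the inhibitor and rose in CDK2 KO cells. They are the 250 bases before the annotated start, from RefSeq on GRCh38.p14, with matches to 5 short motifs in capitals. For caudal factors the motif was ATAAA. The zinc finger factors of the family of GATA6 were searched as GATAA, and the Krüppel-like factors as CACCC. The motif of ETS factors was GGAAG, and that of the TATA box was TATAA, which can overlap the caudal motif. Both strands were read. The ELF3 window is chr1:202010337-202010586 on the plus strand and the KLF4 window is chr9:107489770-107490019 on the minus strand.
ELF3: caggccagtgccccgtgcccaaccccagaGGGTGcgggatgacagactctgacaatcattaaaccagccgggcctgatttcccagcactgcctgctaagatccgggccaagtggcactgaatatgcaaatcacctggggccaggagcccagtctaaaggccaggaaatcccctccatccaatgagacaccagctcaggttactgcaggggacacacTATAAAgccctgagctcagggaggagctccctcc
KLF4: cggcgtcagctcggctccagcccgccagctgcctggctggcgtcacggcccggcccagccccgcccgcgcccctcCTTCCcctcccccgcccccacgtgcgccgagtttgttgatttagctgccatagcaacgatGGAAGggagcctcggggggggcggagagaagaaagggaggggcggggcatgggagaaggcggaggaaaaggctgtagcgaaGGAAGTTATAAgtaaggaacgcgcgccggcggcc
The ELF3 window held 1 ATAAA overlapping a TATAA that began 34 bases before the start, and 1 CACCC 221 bases before it on the opposite strand. The KLF4 window held 3 GGAAG, of which 1 was on the opposite strand, and a TATAA on each strand beginning 28 and 29 bases before the start. Neither held GATAA. Among 35116 promoter windows of the same length, ATAAA occurred in 32.7%, GATAA in 20.4%, CACCC in 54.7%, GGAAG in 65.1% and TATAA in 18.9%, so each of these short strings is common. Promoter sequences were given for 6 of the 8 genes.

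Levels are log2 of the scanner's processed intensity after subtraction of the 75th percentile of each array, so 0 is the level below which 3 in 4 spots of that array lie. The scanner's own flag placed 32376 to 36206 of 58717 non-control spots per array well above background. Slide 1 carried CDK2 KO and R50, and slide 2 carried the parental cells with and without NU6102. Slide and group therefore cannot be told apart in CDK2 KO or R50 against WT, nor in R50 against WT+NU6102, and the remaining contrasts (the inhibitor's effect in WT cells, and R50 against CDK2 KO) stay within a slide. The deleted gene was still above background on all arrays. The CDK2 probe read -1.56 and -1.51 in CDK2 KO cells, -1.10 and -1.09 in R50, -0.76 and -0.76 in WT and -0.44 and -0.42 in WT+NU6102.

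The labelled cell type was checked with markers. EPCAM, KRT8, KRT18 and KRT19, general epithelial genes, lay between 5.95 and 8.11 on every array, and E-cadherin (CDH1) between 1.11 and 2.15. Of the intestinal markers, all 8 arrays detected CDX1, CDX2, LGALS4 and MUC2 well above background and 6 of them KRT20. No array detected CDH17, GUCY2C, HNF4A or VIL1. The gastric markers SOX2, CLDN18 and GKN1 and the squamous markers TP63 and KRT5 were likewise undetected, but the gastric mucin MUC5AC was above background on all 8 arrays, as were 7 of 12 genes of the gastric list and 2 of 8 of the squamous list. PTPRC, an immune marker, read between -2.57 and -2.18 and was above background on all. Of the intestinal lists, 16 of 24 transcription factors and 18 of 42 enterocyte genes were above background on all 8 arrays. Each marker is read by its brightest probe, and other probes could differ. Above background on all 8 arrays were 2 of 4 MUC2, 2 of 3 MUC5AC, 1 of 5 PTPRC, 2 of 3 VWF and 1 of 2 ZEB1 probes.

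Of the 8 genes, 6 were tested, and each of these 6 was well above background on all 8 arrays. ELF3 and KLF4 fell in WT+NU6102 cells and rose in CDK2 KO cells, KLF5 rose above all in R50 cells, and GATA6 moved against ELF3 in every comparison with WT. CDX1 and CDX2 passed in none of the 5 planned comparisons, although CDX2 passed in CDK2 KO against WT+NU6102, a contrast added after the values were seen (log2 difference 0.47, limma adjusted p = 0.0313). Across the 4 groups, limma's F-test, read at an adjusted p under 0.001 (Benjamini-Hochberg), called ELF3 (adjusted p = 3.64e-05), KLF4 (5.42e-05), KLF5 (0.000109) and GATA6 (0.000494), and not CDX2 (0.0863) or CDX1 (0.926). That is 4 of 6 genes, beside 27.6% of all 15330 genes tested.

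**Figure D1:**
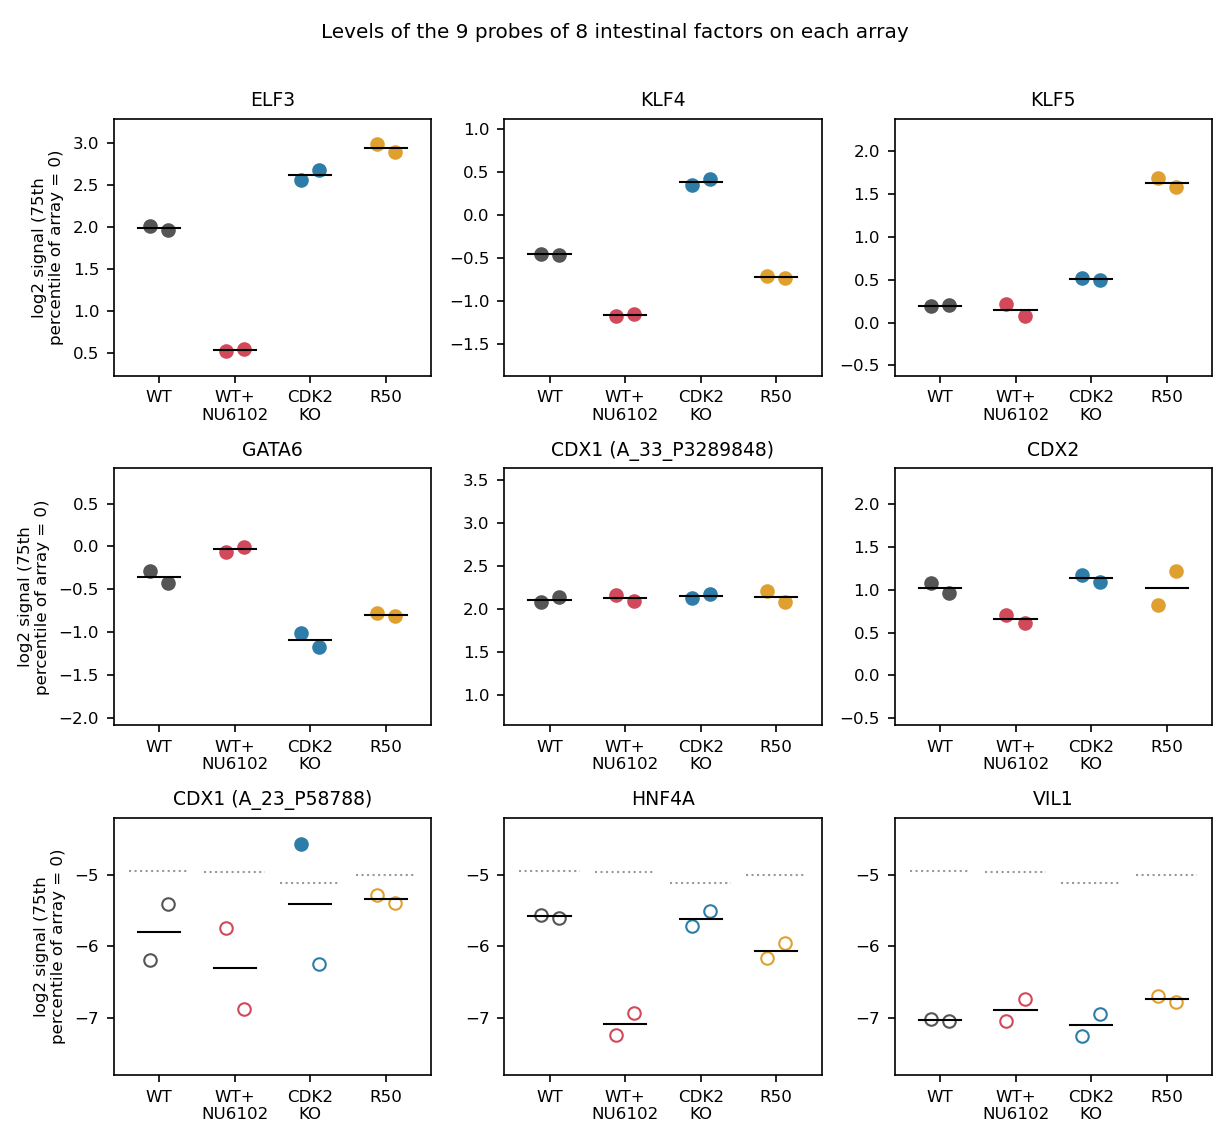
Level of each of the 9 probes on each array (log2 signal, with the 75th percentile of the array at 0) in WT, WT+NU6102, CDK2 KO and R50 cells. Filled points were well above background and open points were not, and the black line is the mean of 2 arrays. The dotted line, where it falls within the panel, is the lowest signal well above background on each array, averaged over the group's 2 arrays. Each panel has its own axis range. In the ELF3, KLF4 and GATA6 panels the 2 points of each group sit apart from those of the other groups, and CDX1 stays between 2.08 and 2.20 on all arrays.

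ELF3 had the widest range of the set. Its signal was 2.00 and 1.96 on the WT arrays, 0.53 and 0.54 with NU6102, 2.55 and 2.67 in CDK2 KO cells and 2.99 and 2.89 in R50 cells. No group overlapped another, and the order from high to low was R50, CDK2 KO, WT, WT+NU6102. How many of all genes have groups that do not overlap was not counted, here or for the members below. Against WT, ELF3 fell by 1.45 on the log2 scale in WT+NU6102 cells (SE 0.06, limma adjusted p = 0.000130), which is 2.73-fold lower. It rose by 0.63 in CDK2 KO cells (SE 0.06, limma adjusted p = 0.00154), or 1.54-fold, and by 0.96 in R50 cells (SE 0.06, limma adjusted p = 0.000823), or 1.94-fold. The WT+NU6102 change was within a slide. R50 cells thus carried 5.29-fold more ELF3 signal than WT cells exposed to the drug for 24 h, a log2 difference of 2.40 (SE 0.06, limma adjusted p = 1.70e-05). The step from CDK2 KO to R50 was 0.33 (limma adjusted p = 0.0118), which no longer passed without CDK2 KO replicate 1 (0.27, adjusted p = 0.0592), without R50 replicate 1 (0.28, adjusted p = 0.0568) or within slide 1 alone (adjusted p = 0.0577). It also did not pass without a filter on dim probes (adjusted p = 0.0536) or by an equal-variance t-test of each pair of groups (0.146). This is called the methods' t-test below, after the paper's general statistics, whereas its array methods name one-way ANOVA. By that t-test ELF3 did not pass in CDK2 KO (0.0710) or R50 cells against WT (0.0817) either.

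KLF4 was the member in which CDK2 KO and R50 cells lay on opposite sides of WT. It read -0.45 and -0.46 in WT, -1.17 and -1.15 in WT+NU6102, 0.36 and 0.42 in CDK2 KO and -0.71 and -0.74 in R50. The CDK2 KO arrays stood above all others and the WT+NU6102 arrays below all others. KLF4 fell by 0.71 with NU6102 (SE 0.05, limma adjusted p = 0.000301), a 1.63-fold decrease, and rose by 0.85 in CDK2 KO cells (SE 0.05, limma adjusted p = 0.000259), a 1.80-fold increase. In R50 cells it fell by 0.27 against WT (limma adjusted p = 0.0160), which lay past the threshold only with all 4 arrays compared, the adjusted p being 0.0582 to 0.0776 without WT replicate 1 or 2 or R50 replicate 1 or 2. Without a filter on dim probes the adjusted p was 0.0902 and by the methods' t-test 0.0880. The direct contrast on slide 1 was larger. R50 cells were lower than CDK2 KO cells by a log2 difference of -1.11 (SE 0.05, limma adjusted p = 0.000104), or 2.16-fold. Across the slides, R50 cells were higher than WT+NU6102 cells by 0.44 (limma adjusted p = 0.000721).

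KLF5 separated R50 from the rest. Its signal was 0.19 and 0.20 in WT, 0.22 and 0.07 in WT+NU6102, 0.52 and 0.50 in CDK2 KO and 1.68 and 1.58 in R50. R50 arrays were the highest, CDK2 KO arrays came next, and the WT and WT+NU6102 arrays overlapped. KLF5 rose by 1.44 in R50 cells against WT (SE 0.07, limma adjusted p = 0.000361), which is 2.71-fold, and was 2.18-fold higher in R50 than in CDK2 KO cells within slide 1 (log2 difference 1.13, limma adjusted p = 0.000265). It was 2.81-fold higher in R50 than in WT+NU6102 cells (limma adjusted p = 5.31e-05). With NU6102 for 24 h the log2 difference from WT was -0.05 (limma adjusted p = 0.566), with a 95% interval from -0.22 to 0.11. The CDK2 KO increase was small, 0.31 (limma adjusted p = 0.0201), and was lost without WT replicate 1, WT replicate 2, CDK2 KO replicate 1 or CDK2 KO replicate 2, with an adjusted p of 0.0764 to 0.0878, and without a filter on dim probes (0.0782). By the methods' t-test the R50 increase against WT had an adjusted p of 0.0705.

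The pair of Krüppel-like factors therefore had different orders. KLF4 ran CDK2 KO, WT, R50, WT+NU6102 from high to low, and KLF5 ran R50, CDK2 KO and then WT beside WT+NU6102. In R50 cells against WT, KLF5 rose while KLF4 fell. In WT+NU6102 cells KLF4 fell, and the 2 KLF5 arrays lay on either side of the WT arrays.

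GATA6 was the one member that rose with the inhibitor. It read -0.28 and -0.42 in WT, -0.07 and -0.01 in WT+NU6102, -1.02 and -1.17 in CDK2 KO and -0.78 and -0.81 in R50. The groups did not overlap, and their order from high to low was WT+NU6102, WT, R50, CDK2 KO. GATA6 fell by 0.74 in CDK2 KO cells against WT (SE 0.08, limma adjusted p = 0.00181), or 1.67-fold. It fell by 0.44 in R50 cells (SE 0.08, limma adjusted p = 0.0151) and rose by 0.32 in WT+NU6102 cells (SE 0.08, limma adjusted p = 0.0210), and both calls depended on single arrays. The WT+NU6102 call was lost without WT replicate 2 (0.25, adjusted p = 0.0962), WT+NU6102 replicate 1 (0.35, adjusted p = 0.0570) or WT+NU6102 replicate 2 (0.29, adjusted p = 0.0955), without a filter on dim probes (adjusted p = 0.0716) and by the methods' t-test (0.127). The R50 call was lost without WT replicate 1 (-0.37, adjusted p = 0.0719), R50 replicate 1 (-0.46, adjusted p = 0.0611) or R50 replicate 2 (-0.43, adjusted p = 0.0631), without a filter (adjusted p = 0.0647) and by the methods' t-test (0.146), by which the CDK2 KO call was lost as well (0.0930). R50 was lower than WT+NU6102 by a log2 difference of -0.76 (limma adjusted p = 0.000594). R50 and CDK2 KO cells differed by 0.30 (limma adjusted p = 0.0323), and this call was lost within slide 1 alone (adjusted p = 0.0719), without a filter (0.105), by the methods' t-test (0.168), without CDK2 KO replicate 2 (0.22, adjusted p = 0.135), without R50 replicate 1 (0.29, adjusted p = 0.116) or 2 (0.31, adjusted p = 0.0916), and without either WT+NU6102 array (adjusted p = 0.0542).

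CDX1, by contrast, barely varied. Its brighter probe read 2.08 and 2.14 in WT, 2.16 and 2.10 in WT+NU6102, 2.12 and 2.17 in CDK2 KO and 2.20 and 2.08 in R50. All groups overlapped. The largest log2 difference from WT was 0.04, in CDK2 KO cells (95% interval -0.12 to 0.19, limma adjusted p = 0.680). The intervals for WT+NU6102 (-0.13 to 0.18) and R50 (-0.12 to 0.19) likewise left out a change of 0.2 in either direction. The probe downstream of the stop codon was well above background on 1 of 8 arrays, CDK2 KO replicate 1, and was not tested, so the CDX1 statement rests on a single probe.

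CDX2 lay between these cases. It read 1.08 and 0.96 in WT, 0.70 and 0.61 in WT+NU6102, 1.18 and 1.09 in CDK2 KO and 0.83 and 1.22 in R50. Both WT+NU6102 arrays were below every other array, and the R50 arrays were the most spread of any member that was tested, with an SD of 0.28. The log2 difference of WT+NU6102 from WT was -0.36 (95% interval -0.70 to -0.02, limma adjusted p = 0.0823) and did not pass. It passed within slide 2 alone (adjusted p = 0.0349) and when the prior variance was allowed to depend on intensity (adjusted p = 0.0213), and also without either R50 array (adjusted p = 0.0175), which enter that contrast only through the shared estimate of spread. In CDK2 KO cells the difference was 0.11 (95% interval -0.23 to 0.45) and in R50 cells 0.01 (95% interval -0.34 to 0.35). Across the slides, R50 was higher than WT+NU6102 by 0.37 (95% interval 0.03 to 0.71, limma adjusted p = 0.0715) and did not pass. That contrast passed under 3 of 18 other settings, and it ranged from 0.17 to 0.57 with each array left out.

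HNF4A and VIL1 were not well above background on any array. HNF4A gave -5.55 and -5.60 in WT, -7.24 and -6.93 in WT+NU6102, -5.71 and -5.51 in CDK2 KO and -6.17 and -5.95 in R50, and VIL1 lay between -7.26 and -6.70 on all 8. Signals of this size have only an upper bound, and no fold change is given for either gene. The array has no other probe under the symbol HNF4A, and which HNF4A transcripts hold this sequence was not tested.

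The counts of members were read against those of all genes. In WT+NU6102 against WT, 3 of 6 members passed at an adjusted p under 0.05 (1 higher, 2 lower), beside 53.1% of all genes tested. With a 2-fold change as well, 1 member was lower (ELF3) and 0 were higher, beside 5.52% and 1.17% of all genes. In CDK2 KO against WT, 4 of 6 passed (3 higher, 1 lower), beside 36.1%, and no member reached a 2-fold change, which 2.77% of genes did upwards and 2.26% downwards. In R50 against WT, 4 of 6 passed (2 higher, 2 lower), beside 27.8%. KLF5 alone changed 2-fold there, upwards as 1.89% of genes did, while 0.855% of genes went 2-fold down and no member did. In R50 against CDK2 KO 4 of 6 passed, beside 41.2%, and in R50 against WT+NU6102 4 of 6 passed, beside 60.2%. By direction, 29.1% of all genes were higher and 24.1% lower with NU6102, 19.6% higher and 16.5% lower in CDK2 KO cells, and 12.2% higher and 15.6% lower in R50 cells. The members' shares are of few genes. The median log2 fold change over the 6 members was -0.21 with NU6102, 0.21 in CDK2 KO and 0.02 in R50 cells against WT, where the medians of all genes were 0.04, 0.02 and -0.04. These comparisons share the WT arrays.

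**Figure D2:**
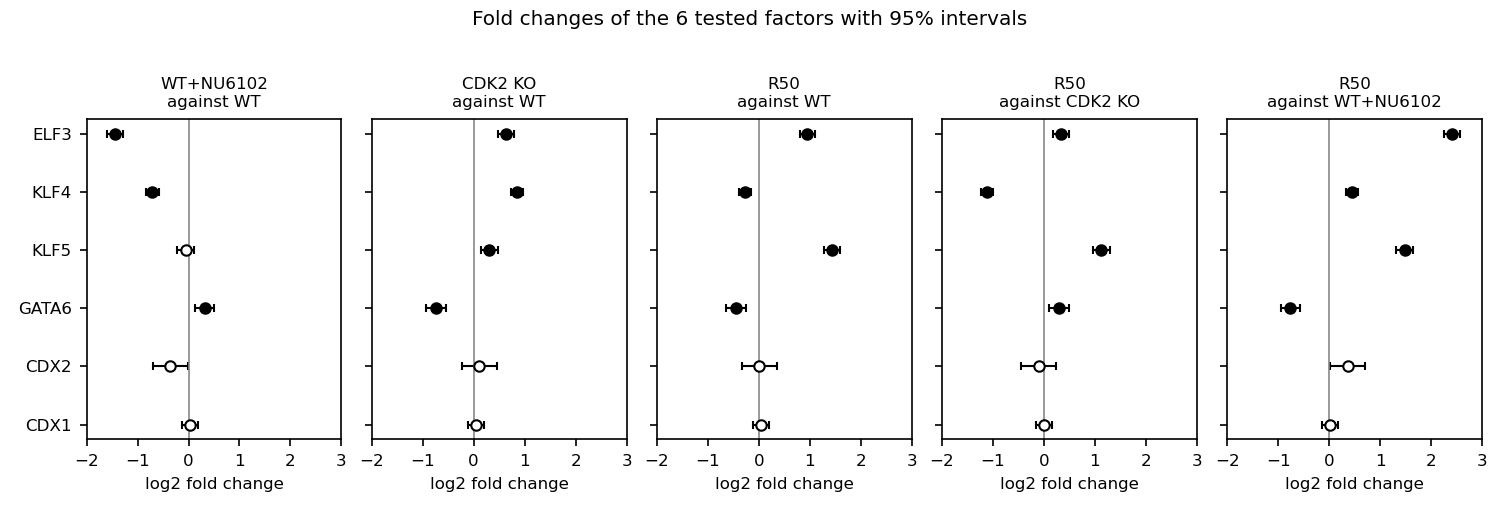
Log2 fold change of each tested factor in 5 comparisons, with 95% intervals from limma (8 arrays in the fit, 2 per group). Filled points passed an adjusted p under 0.05. ELF3 spans from -1.45 in WT+NU6102 against WT to 2.40 in R50 against WT+NU6102, and the intervals of CDX1 include 0 in all 5.

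**Figure D3:**
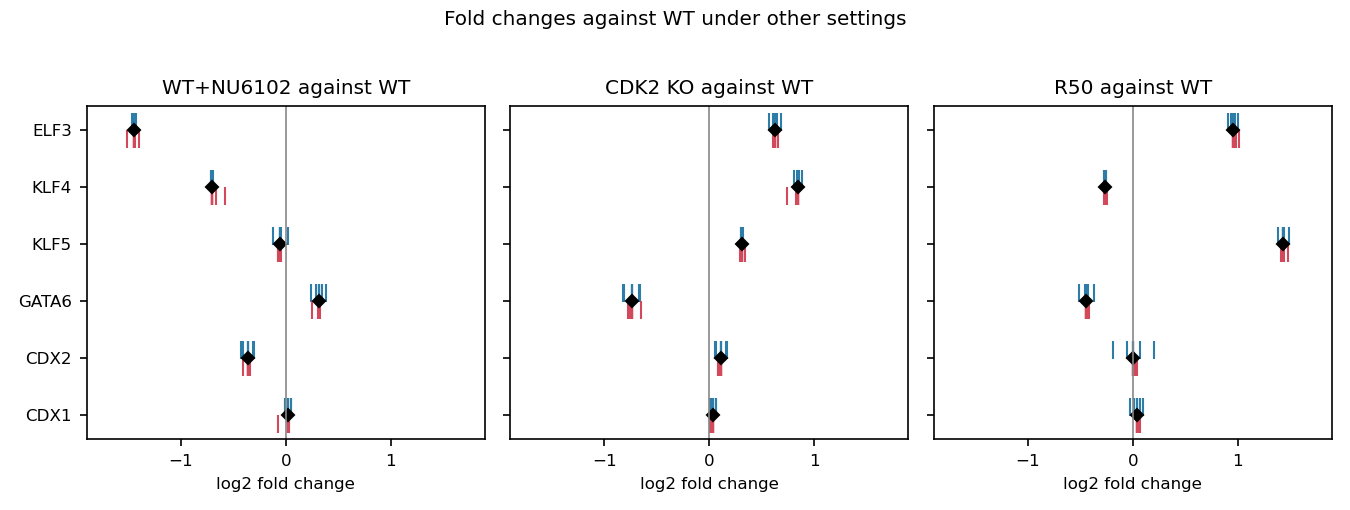
Log2 fold change of each tested factor against WT as reported (black diamonds), with each array left out in turn (blue ticks, above) and under the other processing settings (red ticks, below). ELF3, KLF4 and GATA6 keep their sign in all 3 comparisons, and the ticks of CDX1 in WT+NU6102 and R50, of CDX2 in R50 and of KLF5 in WT+NU6102 lie on both sides of 0.

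Genes with the most similar profile to each member were listed by the root mean square difference over the 8 arrays, after each probe was centred on its mean, among 13929 genes. Nearest to KLF4 were HMGCS1, an enzyme of cholesterol synthesis (0.05), and SOX4 (0.06), against a spread of KLF4 itself of 0.57. KLF5 was closest to LAMB3, a laminin chain (0.07), against 0.60. ELF3 was closest to IER5L (0.10) and ACVRL1 (0.12), against 0.92. GATA6 was closest to CTPS, a CTP synthase (0.06), and C16orf45 (0.07), against 0.41, and CDX2 to CHTF8 (0.08) and ATRN (0.08), against 0.21. For CDX1 the nearest genes, OXT (0.02) and JRK (0.03), mark only that its own spread was 0.04. The 8 arrays form 4 groups, so these distances describe mainly the 4 group levels.

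The members were then set beside 24 other transcription factors of the intestine, of which 19 were tested. With NU6102, 4 of these rose and 7 fell, beside 29.1% and 24.1% of all genes, with a median log2 fold change of -0.22. HNF4G, a paralogue of HNF4A, was above background on both WT arrays and on neither WT+NU6102 array, at least 3.96-fold lower (limma adjusted p = 0.00106), and EHF, an ETS factor related to ELF3, fell by 1.39 (limma adjusted p = 0.000111). In CDK2 KO cells 8 rose and 5 fell (median 0.24), beside 19.6% and 16.5% of all genes. FOXA2, a forkhead factor of the endoderm, was at least 1.97-fold higher there, but CDK2 KO was the one group with FOXA2 above background and so the one through which it entered the test. PRDM1 rose by 2.78, NR5A2 fell by 3.88 and EHF fell by 1.67. ELF3 and EHF thus changed in the same direction with NU6102 and in opposite directions in CDK2 KO cells. In R50 cells 3 rose and 5 fell (median -0.13), beside 12.2% and 15.6% of all genes, and HNF4G fell by 1.66 (limma adjusted p = 0.0238), with 1 of 2 R50 arrays above background.

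Genes of enterocytes and the brush border, among which are many targets of the circuit, were detected unevenly, with 18 of 42 above background on all 8 arrays and 14 on none. Of 26 tested, 2 rose and 10 fell with NU6102 (median -0.26), 4 rose and 9 fell in CDK2 KO cells (median -0.34), and 7 rose and 3 fell in R50 cells (median 0.15). The shares of all genes higher and lower were 29.1% and 24.1%, 19.6% and 16.5%, and 12.2% and 15.6% in the same order. KRT20, an intermediate filament of differentiated cells, was at least 4.29-fold lower with NU6102 and below background on both of its arrays. APOA4, an apolipoprotein, was above background in WT cells only, through which it entered the test, and was at least 4.41-fold lower with NU6102, 4.90-fold lower in CDK2 KO and 4.55-fold lower in R50 cells. The glucose transporter SLC5A1 was at least 6.73-fold lower in CDK2 KO cells and rose by 1.72 in R50 cells, and fell by 2.19 with NU6102, where 1 of 2 arrays was above background. The scaffold protein USH1C fell by 1.89 with NU6102. In CDK2 KO cells the peptide transporter SLC15A1 was at least 18.5-fold lower, and the peptidase DPP4 rose by 3.55. In R50 cells PHGR1 was at least 9.76-fold higher and the adhesion molecule CEACAM1 rose by 2.08.

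Among 29 tested paralogues of the members, 5 rose and 13 fell with NU6102 (median -0.24), 7 rose and 7 fell in CDK2 KO cells (median 0.01), and 10 rose and 5 fell in R50 cells (median 0.03). Over all genes, 29.1% rose and 24.1% fell, 19.6% rose and 16.5% fell, and 12.2% rose and 15.6% fell, respectively. KLF2 rose by 1.41 with NU6102 and fell by 1.31 in CDK2 KO cells, which are the opposite directions to those of KLF4. KLF9 fell by 1.59 with NU6102 and KLF12 rose by 1.03 in R50 cells. ELF5, another ETS factor, was at least 2.42-fold lower with NU6102, rose by 2.59 in CDK2 KO cells and rose by 1.49 in R50 cells, the same directions as ELF3 (limma adjusted p = 0.00705, 0.00307 and 0.0259). HNF4G and EHF belong to this list as well as to the preceding transcription factors, and HNF4G fell by 1.29 in CDK2 KO cells. Over all 10 lists, 7 genes are counted in 2 lists, so the counts of different lists are not independent.

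**Figure D4:**
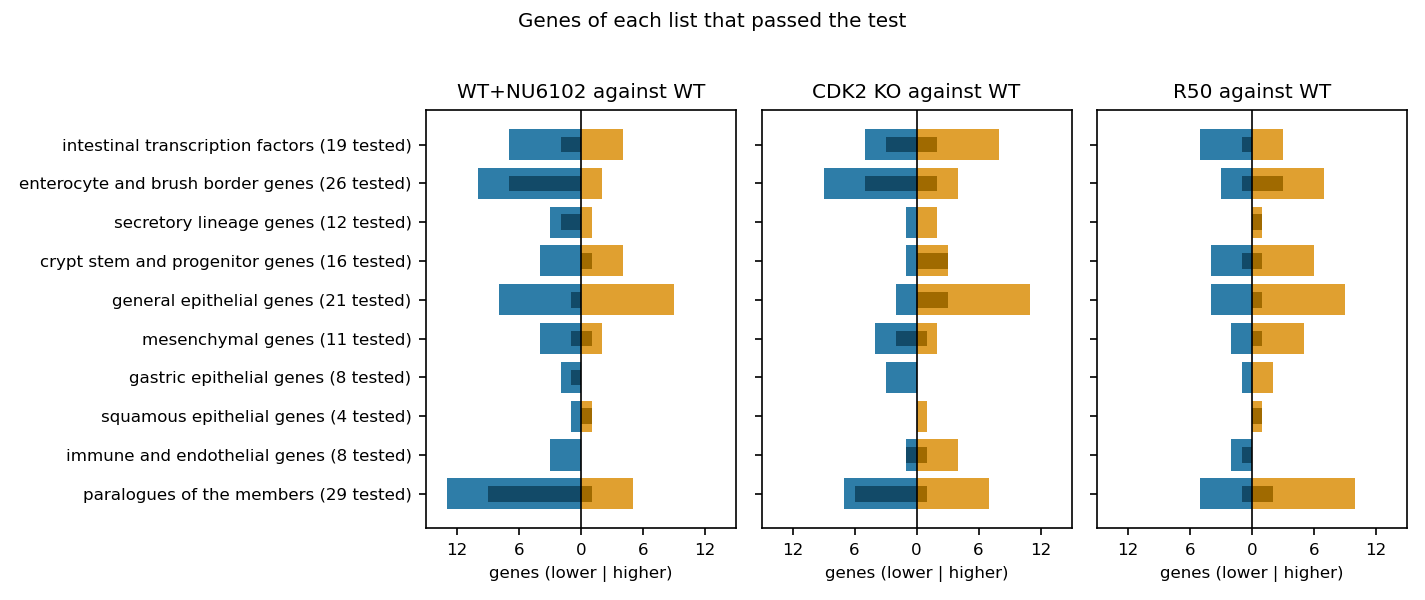
Number of genes of each list with an adjusted p under 0.05 against WT, drawn to the right for higher and to the left for lower, in WT+NU6102, CDK2 KO and R50 cells. Wide bars count all such genes and narrow dark bars those that also changed at least 2-fold. Among enterocyte and brush border genes 10 were lower and 2 higher with NU6102, and 3 were lower and 7 higher in R50 cells.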

How the data were processed

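RNA of 8 cultures was labelled with Cy3 and hybridised to Agilent arrays. The authors deposited, for each spot, a background-subtracted intensity from Agilent Feature Extraction 11.5.1.1 that is not normalized between arrays, and flags for outliers and for signal well above background. The authors also deposited their GeneSpring GX output, log2 values of 28719 probes, which was used as an alternative. Gene symbols and hg19 positions are those of the scanner files.

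R 4.3.3 read the files. After removal of control and outlier-flagged spots, each array's log2 processed signal was reduced by its 75th percentile and averaged per probe. Of 50599 probes, 31 had no usable spot on an array. Testing was limited to 28677 probes that both arrays of some group held well above background, and a gene is represented by its brightest tested probe (15330 genes). For a probe below background on both arrays of a group, the fold is a lower bound against the lowest signal well above background. No spot was saturated. The number of arrays limits the precision.

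Limma 3.58.1 fitted the 4 groups together (two-sided contrasts with empirical Bayes, Benjamini-Hochberg over all probes). Where an adjusted p is given without a test, it is limma's. The fit was tested on simulated data. The study's array methods used one-way ANOVA followed by a Student Newman Keuls test, and the latter was not run here. The series calls the arrays biological replicates, and p-values measure only the spread between them. Named genes are the 8 members with every probe, up to 4 genes per list and comparison with WT (adjusted p under 0.05, at least 2-fold, above background on at least 2 of 4 arrays), cell type markers, the 2 nearest profiles of each member, and CDK2. Some genes that this rule names are not reported here. The members and lists were chosen with earlier results of these data known. As alternatives, the background was corrected by normexp (offset 50), arrays were quantile normalized, dim probes were kept or filtered more strictly, the authors' values replaced the scanner's, and the prior variance followed a trend. Others were the methods' t-test and ANOVA, a replicate block, each slide alone, the mean of a gene's probes, an adjusted p under 0.01 and leaving out each array. The difference between CDK2 KO and WT+NU6102 was tested after the values were seen. Promoters are from RefSeq on GRCh38.p14. Figures were drawn with Python 3.11.15 and matplotlib 3.10.9.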

Additional observations from a re-analysis of the deposited data

Results flagged for a closer look

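In several members every array of one group lay above both WT arrays and every array of another group lay below them. The share of all genes with this separation was not counted, so the separation is not read as particular to the members. The members named here were picked by it, on the same arrays that gave the tests. The difference between the 2 effects was tested with limma, where it equals the contrast of the 2 groups. ELF3 was lower with NU6102 and higher in CDK2 KO and R50 cells. Its effect in R50 exceeded that in WT+NU6102 by 2.4042 on the log2 scale (adjusted p = 1.70e-05) and its effect in CDK2 KO exceeded that in WT+NU6102 by 2.0763 (adjusted p = 2.33e-05). KLF4 was lower with NU6102 and higher in CDK2 KO cells, a difference of 1.5527 (adjusted p = 2.42e-05), and higher in CDK2 KO but lower in R50 cells, a difference of -1.1112 for R50 less CDK2 KO (adjusted p = 0.000104). GATA6 was higher with NU6102 and lower in the others, with differences of -0.7589 for R50 less WT+NU6102 (adjusted p = 0.000594) and -1.0576 for CDK2 KO less WT+NU6102 (adjusted p = 0.000200). CDX2 was lower with NU6102 and higher in CDK2 KO cells than on either WT array, a difference of 0.4744 (adjusted p = 0.0313), although neither effect passed against WT. The contrast of CDK2 KO with WT+NU6102, in which 60.5% of all genes passed, crosses the slides, as does that of R50 with WT+NU6102 (60.2%). Slide and group cannot be told apart in these. The KLF4 difference between CDK2 KO and R50, a contrast in which 41.2% of all genes passed, lies within slide 1.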

How the results depend on the processing

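Of 552 fold changes of members under other settings, 486 kept their direction and their side of the threshold, 44 were no longer past it, 7 were newly past it and 15 changed sign. Every change of sign was in CDX1, CDX2 or KLF5 where no call had been made. For CDX1 it was -0.0747 in WT+NU6102 against WT under quantile normalization, and in R50 against CDK2 KO 0.0406 after normexp, 0.0405 under quantile normalization and 0.0191 with the authors' values. With each array left out, CDX1 ranged from -0.0110 to 0.0530 in WT+NU6102, -0.0261 to 0.0967 in R50, -0.0650 to 0.0578 in R50 against CDK2 KO and -0.0471 to 0.0757 in R50 against WT+NU6102, KLF5 from -0.123 to 0.0181 in WT+NU6102, and CDX2 from -0.194 to 0.205 in R50 and -0.306 to 0.0932 in R50 against CDK2 KO. The cause was not tested.

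The number of members past the test went from 4 to 2 in CDK2 KO against WT by the methods' t-test. In R50 against WT it went from 4 to 2 without a filter on dim probes and at an adjusted p under 0.01, to 0 by the methods' t-test (4 at an unadjusted p under 0.05) and to 2 to 4 with an array left out (2 without WT replicate 1, R50 replicate 1 or R50 replicate 2). In R50 against CDK2 KO it went from 4 to 2 without a filter, by the methods' t-test, on slide 1 alone and at an adjusted p under 0.01, and to 2 to 4 with an array left out (2 without R50 replicate 1). In the F-test it went from 4 to 2 to 3 with an array left out (2 without CDK2 KO replicate 2 or R50 replicate 1). Over all genes the share past the F-test fell from 27.6% to 3.30% without a filter, 11.2% by ANOVA, 9.39% with a replicate block and 4.32% to 7.76% with an array left out, and rose to 41.6% after normexp and 52.7% with a trended prior variance. Without a filter the share of all genes passing was 29.9% in WT+NU6102, 15.9% in CDK2 KO and 7.29% in R50 against WT, 19.0% in R50 against CDK2 KO and 37.6% in R50 against WT+NU6102, and by the methods' t-test it was 24.4%, 6.39%, 0.046%, 9.90% and 36.3% in that order. At an adjusted p under 0.01 it was 19.6% in CDK2 KO, 9.71% in R50 and 23.8% in R50 against CDK2 KO, and with an array left out its lowest values were 21.8%, 11.4% and 26.7%. The replicate number did not pair the samples, since deviations from the group means correlated between -0.03 and 0.05 for arrays of the same number. With a replicate block the members passing were 3 in WT+NU6102, 4 in CDK2 KO and 4 in R50 against WT, 4 in R50 against CDK2 KO, 4 in R50 against WT+NU6102 and 3 in the F-test (4 without the block). No member's fold change crossed the threshold or changed sign under the block. Of 1100 counts of list genes that passed the test with a 2-fold change as well, 985 stayed within 1.5 times. Several of these 2-fold counts stayed at 0 with each array left out. The list counts given in the text have no fold cut-off and were not varied in this way. A probe near background is limited by its signal, which concerns HNF4G, FOXA2, APOA4, KRT20, SLC5A1, SLC15A1, PHGR1, ELF5, CLCA1 and KRT6A among the genes named. It also concerns VIM, which was above background on all 8 arrays but read as low as -4.82.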

Other observations

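Lists of other cell types and states were counted against WT, in the order WT+NU6102, CDK2 KO, R50. Of all genes, 29.1%, 19.6% and 12.2% rose and 24.1%, 16.5% and 15.6% fell. Of 21 general epithelial genes tested, 9, 11 and 9 rose and 8, 2 and 4 fell. GRHL3, a grainyhead factor, fell by 1.03 with NU6102 and rose by 4.66 in CDK2 KO cells, and OVOL1 rose by 1.19 in CDK2 KO cells. Of 16 crypt stem and progenitor genes, 4, 3 and 6 rose and 4, 1 and 4 fell. The Wnt target AXIN2 rose by 2.58 with NU6102 and by 1.44 in CDK2 KO cells. RNF43, an E3 ligase that restrains Wnt signalling, rose by 3.71 in CDK2 KO cells and fell by 1.40 in R50 cells, its relative ZNRF3 rose by 1.24 in CDK2 KO cells and the ion transporter SLC12A2 rose by 1.29 in R50 cells.

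Of 12 secretory lineage genes, 1, 2 and 1 rose and 3, 1 and 0 fell. SPINK4 fell by 1.09 with NU6102 and rose by 1.76 in R50 cells, and CLCA1 was at least 1.89-fold lower with NU6102. Of 11 mesenchymal genes, 2, 2 and 5 rose and 4, 4 and 2 fell. SPARC, a matrix glycoprotein, fell by 7.82 in CDK2 KO cells and by 1.20 with NU6102 and rose by 1.48 in R50 cells. VIM fell by 2.16 and COL1A1 rose by 1.22 in CDK2 KO cells, and ZEB1 rose by 1.31 with NU6102. Of 8 gastric genes tested, 0, 0 and 2 rose and 2, 3 and 1 fell. Of 4 squamous genes, 1, 1 and 1 rose and 1, 0 and 0 fell, with KRT6A, which entered the test through WT+NU6102 alone, at least 9.86-fold higher there and KRT13 higher by 2.43 in R50 cells. Of 8 immune and endothelial genes, 0, 4 and 0 rose and 3, 1 and 2 fell, among them CD68, which fell by 1.39 in CDK2 KO and by 1.58 in R50 cells. The part of these genes in the changes of the members was not tested.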
